A study of Mus musculus with 21 samples.

Results

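The genes described are 10 transcription factors of the ETS family: Etv2, Fli1, Erg, Ets1, Ets2, Elk3, Etv6, Etv4, Etv5 and Gabpa. They were chosen by name and found by Ensembl identifier, and all 10 were among the 55487 gene rows of the deposited counts. The counts come from total RNA sequencing of 21 libraries of sorted cells from mouse embryoid bodies, aggregates of differentiating embryonic stem cells, collected on day 4. The series title asks how progenitors marked by Etv2 and by Flk1 feed the endothelial, blood and cardiac lineages.

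The cells were sorted on 2 surface receptors, PDGFRalpha (gene Pdgfra) and FLK1 (gene Kdr, the main receptor for VEGF). Double-positive cells (PDGFRalpha+FLK1+) are written DP and those with FLK1 alone (PDGFRalpha-FLK1+) SP. In one set, the reporter set, 12 libraries came from the TGET line, so that all of its groups have T-GFP together with Etv2-tdTomato. Its DP and SP cells were each split into tdTomato-negative (reporter-negative) and tdTomato-positive (reporter-positive) cells. The other 9 libraries, the second set, were from the wildtype A2lox.Cre line (WT), sorted into DP and SP, and from SP cells of a doxycycline-inducible Etv2 line (iEtv2) that received 2 µg per ml of the drug from day 2.5. Doxycycline was listed for the iEtv2 cells and not for the WT cells. The comparison of iEtv2 SP with WT SP cells is called induced Etv2 below, and induction, drug and cell line cannot be told apart in it. The stem cells were kept on mouse fibroblast feeders and moved to feeder-free plates before differentiation. Each of the 7 groups had 3 libraries, so n = 3 for every mean below. Nothing in the labels says that the 3 came from separate cultures, so p-values measure the spread between these libraries. Values of the 2 sets were never compared as levels, because they came as different files in which pseudogenes took 12.2 to 14.4% of the counts in the reporter set and 0.549 to 0.636% in the second.

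ETS factors share a DNA-binding domain, the ETS domain, that recognises sequences built around the letters GGAA. Etv2 is required for the endothelial and blood lineages and is expressed only briefly in mesoderm. Fli1, Erg, Ets1 and Ets2 are activators that act later in endothelial and blood cells, Elk3 and Etv6 are mainly repressors, and Etv4 and Etv5 are activators whose expression follows FGF signalling. Gabpa is a widely expressed member that binds many promoters of housekeeping genes.

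Start-site sequences are shown for 4 of these genes as examples. Etv2, Erg and Elk3 stand for the side that was higher with Etv2, and Etv5 for the side that was lower. Each is the window from 250 bases before to 50 bases after an annotated start, 300 bases in all, from RefSeq on GRCm38.p6. Capitals mark the ETS core GGAA, or TTCC where it lies on the other strand. Windows were matched for 7 of the 10 genes, and those not matched were Fli1, Ets1 and Etv4. Etv5 has 2 annotated starts here, and Erg has 3, of which the first is shown.
Etv2, chr7:30635803-30636102, minus strand: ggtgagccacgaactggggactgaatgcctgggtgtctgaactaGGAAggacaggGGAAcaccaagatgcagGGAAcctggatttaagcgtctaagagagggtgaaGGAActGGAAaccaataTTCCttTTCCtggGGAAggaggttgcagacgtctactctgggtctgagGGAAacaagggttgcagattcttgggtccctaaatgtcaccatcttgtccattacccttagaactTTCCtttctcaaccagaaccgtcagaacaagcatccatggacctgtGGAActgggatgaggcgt
Erg, chr16:95586544-95586843, minus strand: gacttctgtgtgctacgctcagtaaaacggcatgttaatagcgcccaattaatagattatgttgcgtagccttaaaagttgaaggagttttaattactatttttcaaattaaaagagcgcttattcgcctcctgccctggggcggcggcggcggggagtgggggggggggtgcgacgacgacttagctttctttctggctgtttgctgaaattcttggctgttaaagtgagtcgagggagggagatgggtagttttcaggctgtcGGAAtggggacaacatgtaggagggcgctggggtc
Elk3, chr10:93311110-93311409, minus strand: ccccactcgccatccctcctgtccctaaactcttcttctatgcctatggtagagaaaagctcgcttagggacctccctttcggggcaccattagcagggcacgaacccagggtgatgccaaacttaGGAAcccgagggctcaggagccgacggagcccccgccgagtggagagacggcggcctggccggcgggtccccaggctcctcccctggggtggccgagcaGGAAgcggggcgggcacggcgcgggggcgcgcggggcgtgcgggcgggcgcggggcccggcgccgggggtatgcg
Etv5, chr16:22439521-22439820, minus strand: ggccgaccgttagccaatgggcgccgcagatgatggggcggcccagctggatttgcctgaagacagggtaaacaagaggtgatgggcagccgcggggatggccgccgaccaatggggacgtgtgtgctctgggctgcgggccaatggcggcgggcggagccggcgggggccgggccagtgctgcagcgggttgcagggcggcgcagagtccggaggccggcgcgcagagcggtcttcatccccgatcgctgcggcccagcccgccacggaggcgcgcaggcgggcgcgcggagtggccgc
Etv5, chr16:22438319-22438618, minus strand: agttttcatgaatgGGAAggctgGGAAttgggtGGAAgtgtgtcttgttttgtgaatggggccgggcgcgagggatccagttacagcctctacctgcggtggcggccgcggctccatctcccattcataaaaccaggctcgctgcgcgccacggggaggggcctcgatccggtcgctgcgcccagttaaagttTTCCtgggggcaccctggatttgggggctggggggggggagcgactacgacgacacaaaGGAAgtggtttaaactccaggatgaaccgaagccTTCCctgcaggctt
The Etv2 window held 11 matches to the core on both strands together. Of all 32851 windows of this length, 96.0% held at least 1 match, the median was 3, and 0.253% held 11 or more. The Erg window shown held 1 match and its other 2 windows 4 and 2, and the Elk3 window held 2. The 2 windows of Etv5 differed, with 0 matches at the upstream start and 6 at the downstream start. Among the windows not printed, Etv6 held 6, Gabpa 5 and Ets2 1. The longer form CCGGAAGT, which 3.89% of all windows hold, was in none of the matched windows. A match is a run of letters and not a measured binding site.

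Gene totals ran from 25045553 to 32777143 counts in the reporter set and from 22406153 to 28184904 in the second set. All 10 genes passed the filter on low counts in both sets, and a level of 3 counts corresponds to 0.0915 to 0.134 CPM, the count scaled to the size of its library. Pdgfra, a gate gene, differed between SP and DP by -2.29 and -2.00 on the log2 scale without and with the reporter and by -2.99 in WT. Kdr was between 340.2 and 631 CPM in all 12 reporter libraries. Both gate genes also differed between groups sorted in the same gate. In DP, reporter-positive cells were lower in Kdr (-0.42, adjusted p = 0.0158, edgeR) and Pdgfra (-0.76, adjusted p = 0.00868, edgeR). Pdgfra was lower in iEtv2 SP than in WT SP cells (-2.57, adjusted p = 6.35e-05, edgeR). Among reporter-positive cells Kdr was higher in SP than in DP (0.46, adjusted p = 0.0215, edgeR). Replicate 2 of the reporter-negative SP cells and replicate 3 of the reporter-positive SP cells had 1.40% and 1.28% ribosomal RNA, against at most 0.432% in the other 10 libraries of that set. The second of these also had the highest endothelial and erythroid marker sums of the reporter set, and its SP reporter and gate results are also given without it. In its absence the SP reporter and reporter-positive gate differences were 1.60 and 1.62 for Fli1, 2.16 and 2.93 for Erg, and 1.31 and 0.79 for Elk3, all 6 still called, and those of Etv2 were 1.82 and 0.69. The gate calls of Etv4, Etv5 and Etv6 among reporter-positive cells were lost. Values of the interaction and of the gene lists without it follow below.

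Across the 7 comparisons the ETS genes divided into a group that was higher with Etv2 or in the SP gate, a pair that was lower, and Gabpa, which passed the test in none. Etv2, Erg and Elk3 led the first group, with Fli1, Ets2, Etv6 and Ets1 joining in some comparisons. Etv5, in some comparisons with Etv4, was lower. Calls rest on edgeR's quasi-likelihood test, with p adjusted by Benjamini-Hochberg over every gene tested and a threshold of 0.05. Differences are log2 fold changes with standard errors, and levels are CPM scaled by edgeR's TMM method. In RNA from sorted pools, fewer cells expressing a gene and less RNA per cell cannot be told apart.

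Reporter-positive over reporter-negative DP cells gave 3 ETS genes higher and 1 lower. In that comparison 30.7% of 17690 genes were called, 16% higher and 14.7% lower. In SP cells the same reporter comparison gave 6 higher and 1 lower, where 25.5% of all genes were called, 13.1% higher and 12.4% lower. SP over DP without the reporter gave 1 higher and 1 lower, against 10.9% of genes called, 6.1% higher and 4.84% lower. With the reporter it gave 6 higher and 2 lower, against 13.9% of genes, 6.95% higher and 6.94% lower. In WT, SP over DP gave 7 higher and 0 lower, where 15.8% of 16288 genes were called, 9.08% higher and 6.76% lower. Induced Etv2 gave 7 higher and 2 lower in SP cells, beside 50.8% of genes called, 26.4% higher and 24.4% lower. Etv2 is counted among those higher for the reporter in DP and in SP and with induced Etv2. The sort used its reporter and the iEtv2 line induced the gene, so these calls of Etv2 follow from the design. Comparisons within a set share libraries and are therefore not independent of each other.

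**Figure D1:**
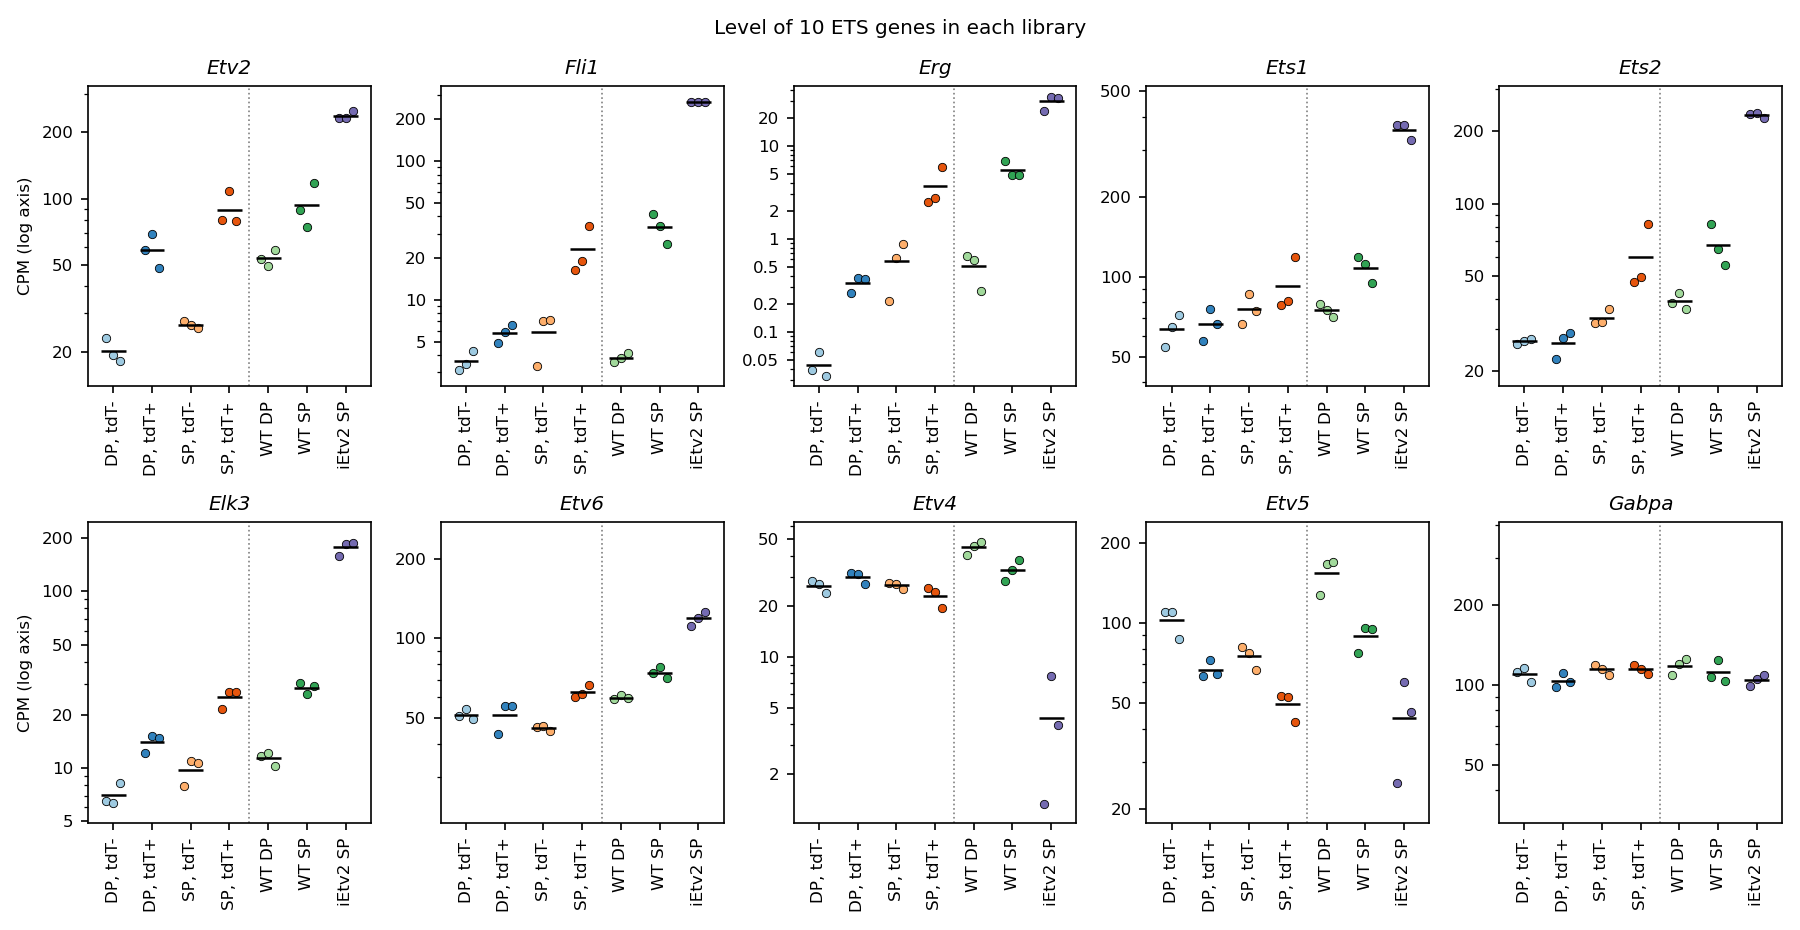
Level of each ETS gene in every library, in CPM on a log axis, with the 3 libraries of a group as points and their mean as a bar. The dotted line separates the reporter set from the second set, whose levels are not comparable with it. Fli1, Erg and Elk3 reach their highest levels of each set in reporter-positive SP and iEtv2 SP cells, Etv5 its lowest, and Gabpa stays between 98.2 and 119 CPM in the reporter set and between 98.8 and 125 in the second.

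**Figure D2:**
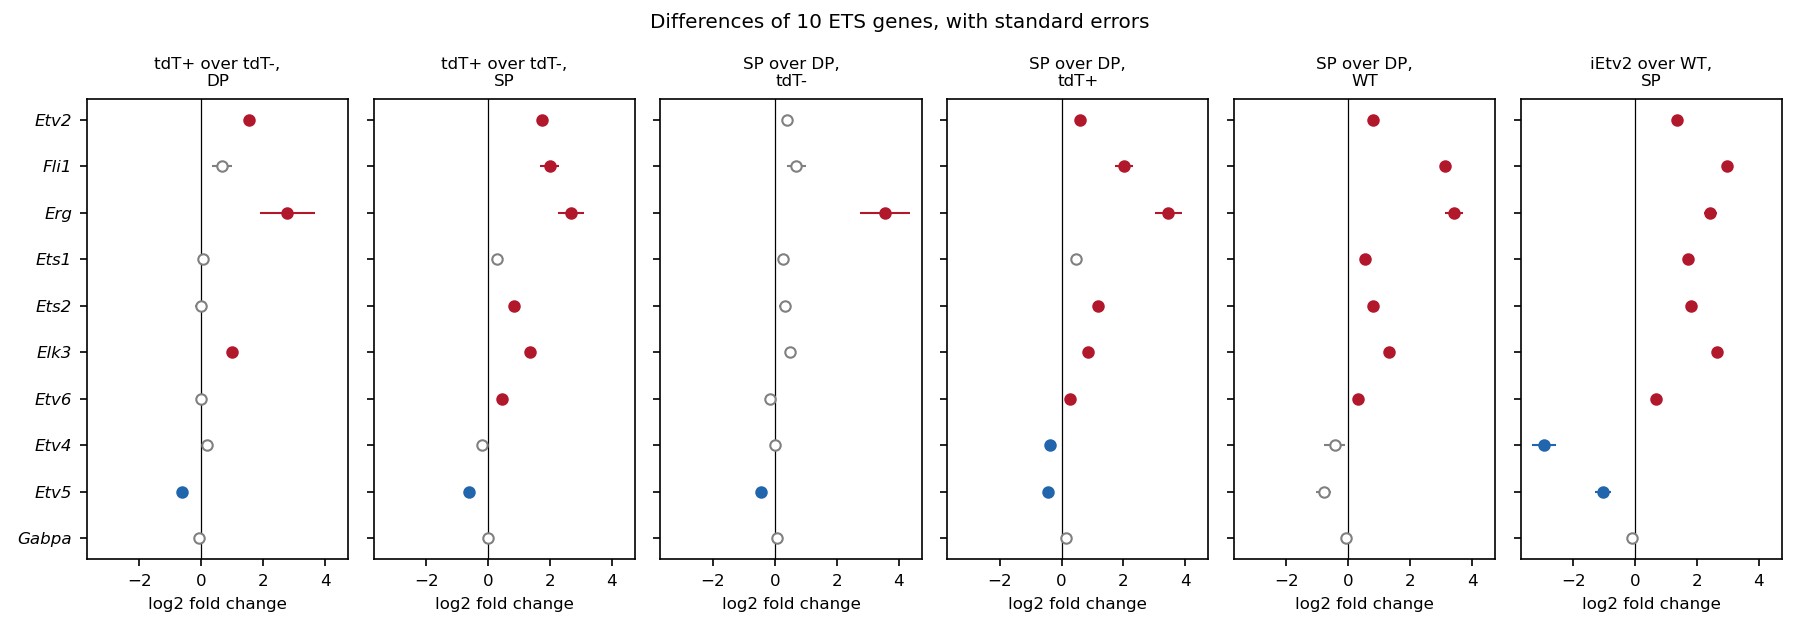
Log2 fold change of each ETS gene with its standard error in 6 comparisons. Filled red points were called higher, filled blue points lower, and open points were not called. Erg has the largest increase of the 10 in the comparisons of the reporter set and in WT, and Etv4 the largest decrease with induced Etv2.

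Etv2 is the gene whose reporter defined the sort, so its level first checks the gates. It was 23.2, 19.4 and 18.1 CPM in replicates 1 to 3 of reporter-negative DP cells and 58.1, 68.9 and 48.3 in reporter-positive DP cells. In SP cells it was 27.7, 26.5 and 25.6 without the reporter and 79.6, 109 and 78.7 with it. No reporter-positive library overlapped a reporter-negative one, and the difference was 1.53 ± 0.15 in DP and 1.74 ± 0.14 in SP, a 2.89-fold and a 3.34-fold change (adjusted p = 1.23e-05 and 1.44e-05, edgeR). Reporter-negative cells still held Etv2 transcripts, at 20.2 ± 2.61 (SD) CPM in DP and 26.6 ± 1.04 in SP. In WT, Etv2 was 53.0, 49.5 and 58.2 CPM in DP and 89.0, 73.9 and 118 in SP, higher in SP by 0.80 ± 0.14 (adjusted p = 0.00331, edgeR). The gates of WT did not overlap either.

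Between the gates of the reporter line the estimates for Etv2 were smaller than those between reporter states. Among reporter-positive cells it was higher in SP by 0.61 ± 0.14 (adjusted p = 0.0131, edgeR), and that call was lost without replicate 2 of the reporter-positive SP cells (0.44, adjusted p = 0.054). Among reporter-negative cells the difference was 0.40 ± 0.15 (adjusted p = 0.11). In iEtv2 SP cells Etv2 was 234, 232 and 250.4 CPM, 2.55-fold the WT SP level (1.35 ± 0.14, adjusted p = 1.88e-05, edgeR). Counts from the induced copy and from the native gene on chromosome 7 (mm10, 30633616 to 30635852, minus strand) cannot be told apart in that line. The induced increase ranked 1548th of 16288 genes by size, behind Fli1, Elk3, Erg, Ets2 and Ets1.

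Fli1 and Erg, close relatives that are known as regulators of endothelial genes, had the steepest gradients. Fli1 was 3.10, 3.47 and 4.27 CPM in reporter-negative DP cells, 4.85, 5.84 and 6.57 in reporter-positive DP cells, and 3.33, 7.09 and 7.16 in reporter-negative SP cells. In reporter-positive SP cells it was 16.5, 19.1 and 34.2 CPM, above every other library of the set. The reporter difference in SP was thus 1.98 ± 0.29, 3.96-fold (adjusted p = 0.000516, edgeR), and between 1.60 and 2.18 with each library left out in turn. In DP it was 0.67 ± 0.32, where the groups did not overlap but the test was not passed (adjusted p = 0.133, and 0.0153 with a replicate block, edgeR). Fli1 was higher in SP than in DP among reporter-positive cells by 2.01 ± 0.29 (adjusted p = 0.00127, edgeR) and differed by 0.70 ± 0.32 among reporter-negative cells (adjusted p = 0.192).

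In the second set too, SP cells held more Fli1 than DP cells. Fli1 was 3.58, 3.83 and 4.11 CPM in WT DP cells and 41.3, 34.2 and 25.3 in WT SP cells, an 8.78-fold difference (3.13 ± 0.17, adjusted p = 3.59e-06, edgeR). By its p, it ranked 5th of the 16288 genes tested in that comparison. In iEtv2 SP cells it was 266, 265 and 267 CPM, 7.91-fold the WT SP level (2.98 ± 0.14, adjusted p = 1.19e-07, edgeR). Those 3 libraries lay closer together than any other group's for this gene relative to the mean.

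Erg, which binds and keeps active many endothelial genes, was near the limit of detection in the reporter-negative DP cells. It had 1, 2 and 1 counts there, at most 0.0603 CPM, and 7, 10 and 12 counts in reporter-positive DP cells. Summed over libraries, the ratio was 7.44 with an exact 95% interval of 2.61 to 29.1 that covers counting error only. The fitted difference was 2.78 ± 0.90 (adjusted p = 0.0323, edgeR). Leaving out any of the reporter-negative DP replicates 1, 2 or 3, or the reporter-positive DP replicates 2 or 3, ended this call, with adjusted p of 0.0841, 0.0742, 0.0863, 0.0675 and 0.0795.

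In SP cells Erg was better covered. It was 0.215, 0.618 and 0.887 CPM without the reporter, from 6, 19 and 26 counts, and 2.47, 2.71 and 5.96 CPM with it. The groups did not overlap, and the difference was 2.68 ± 0.41, 6.41-fold (adjusted p = 0.000614, edgeR). SP over DP was 3.45 ± 0.44 among reporter-positive cells (adjusted p = 0.000717, edgeR). Among reporter-negative cells the count ratio was 12.8 (exact 95% interval 4.71 to 48.8), with a fitted difference of 3.55 ± 0.81 (adjusted p = 0.0145, edgeR). That last call was lost without replicate 1 or 2 of the reporter-negative DP cells or replicate 3 of the reporter-negative SP cells (adjusted p = 0.061, 0.0581 and 0.0582). In WT, Erg was 0.648, 0.589 and 0.271 CPM in DP and 6.87, 4.83 and 4.88 in SP (3.42 ± 0.29, 10.7-fold, adjusted p = 4.32e-05, edgeR). With induced Etv2 it was 23.6, 33.7 and 32.6 CPM (2.44 ± 0.20, adjusted p = 3.85e-06, edgeR), its highest group of the set. Per length that was 8.64 RPKM (CPM per kilobase of exon), the lowest level there of the 7 ETS genes that rose.

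Ets1 and Ets2, a pair of broadly expressed activators, were present in every group. In the reporter line the tests were passed by Ets2 alone of the pair, and the difference between the 2 genes was not tested. Ets2 was 26.1, 26.8 and 27.2 CPM in reporter-negative and 22.5, 27.5 and 28.9 in reporter-positive DP cells, which overlapped (-0.02 ± 0.18, adjusted p = 0.952). In SP cells it was 31.8, 32 and 36.4 without and 47.0, 49.5 and 82.4 with the reporter, and these did not overlap (0.84 ± 0.17, adjusted p = 0.00387, edgeR). Among reporter-positive cells Ets2 was higher in SP by 1.18 ± 0.17, 2.26-fold (adjusted p = 0.0013, edgeR). The highest of these libraries was replicate 3, one of the pair with a raised ribosomal RNA share. Without it the difference between gates was 0.87 and the reporter difference in SP was 0.53, and both calls held.

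Ets1 ran from 54.2 to 118 CPM in the reporter set, and its groups overlapped from each to the next in order of their means. Its reporter differences were 0.06 ± 0.16 in DP and 0.29 ± 0.16 in SP (adjusted p = 0.806 and 0.201, edgeR), and SP over DP among reporter-positive cells was 0.48 ± 0.16 (adjusted p = 0.064). In WT both genes were called: Ets1 was 78.9, 74.9 and 70.6 CPM in DP and 119, 111 and 94.8 in SP (0.53 ± 0.09, adjusted p = 0.00316, edgeR). Ets2 was 38.7, 42.2 and 36.4 in DP and 82.5, 64.5 and 55.6 in SP (0.79 ± 0.12, adjusted p = 0.00168, edgeR). In iEtv2 SP cells Ets1 was 372, 373 and 327 CPM and Ets2 237, 237 and 228. Both were far above the WT SP libraries, by 1.72 ± 0.09 and 1.79 ± 0.12 (adjusted p = 2.36e-07 and 1.05e-06, edgeR).

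Fli1 and Ets1 are neighbours on chromosome 9, as are Erg and Ets2 on chromosome 16. On mm10, Fli1 spans 32422204 to 32542861 on the minus strand and Ets1 32636221 to 32757820 on the plus strand, 93.4 kb apart. Erg spans 95359169 to 95586593 on the minus strand and Ets2 95702075 to 95721051 on the plus strand, 115.5 kb apart. In both pairs the genes point away from each other with 0 protein-coding genes between them. The partners moved by unequal amounts: in reporter-positive over reporter-negative SP cells Fli1 differed by 1.98 and Ets1 by 0.29, and Erg by 2.68 and Ets2 by 0.84. In WT SP over DP the differences were 3.13 and 0.53 for the first pair and 3.42 and 0.79 for the second.

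Elk3, an ERK-responsive factor of the ternary complex group that represses until it is phosphorylated, was called higher with the reporter in both gates. It was 6.51, 6.39 and 8.25 CPM in reporter-negative and 12.2, 15.2 and 14.8 in reporter-positive DP cells (1.00 ± 0.15, adjusted p = 0.000316, edgeR). In SP cells it was 7.89, 10.9 and 10.6 without and 21.7, 27.0 and 27.0 with the reporter (1.36 ± 0.14, 2.57-fold, adjusted p = 5.47e-05, edgeR). Neither pair of groups overlapped. Elk3 was also higher in SP than in DP among reporter-positive cells (0.84 ± 0.14, adjusted p = 0.00254, edgeR), while among reporter-negative cells the difference was 0.48 ± 0.15 (adjusted p = 0.0611). In WT it was 11.7, 12.2 and 10.3 CPM in DP and 30.3, 26.2 and 29.0 in SP (1.32 ± 0.10, adjusted p = 2.87e-05, edgeR).

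With induced Etv2, Elk3 reached 158, 186 and 188 CPM, 6.22-fold the WT SP level (2.64 ± 0.10, adjusted p = 3.56e-08, edgeR). By its p it ranked 10th of the 16288 genes tested, ahead of the other ETS genes. Elk3 (mm10 chromosome 10, 93247414 to 93311135) shares 316 exon bases, 6.95% of its own, with Cdk17 on the opposite strand.

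Etv6, a repressor needed for blood stem cells and yolk sac vessels, varied little in the reporter set. It was 51.1, 54.1 and 49.8 CPM in reporter-negative DP, 43.8, 55.6 and 55.7 in reporter-positive DP, 46.5, 46.7 and 44.8 in reporter-negative SP and 60.3, 61.6 and 66.9 in reporter-positive SP cells. Only the last group stood above the rest of its set, with a reporter difference of 0.45 ± 0.08 in SP (adjusted p = 0.00218, edgeR). The gate difference among reporter-positive cells, 0.28 ± 0.08 (adjusted p = 0.0401, edgeR), was lost without replicate 1 of the reporter-positive DP cells (adjusted p = 0.0911) or replicate 1, 2 or 3 of the reporter-positive SP cells (0.0796, 0.0915 and 0.138). WT cells held 59.1, 61.2 and 59.5 CPM in DP and 74.1, 78.3 and 70.7 in SP (0.31 ± 0.07, adjusted p = 0.0119, edgeR). The iEtv2 SP cells held 112, 119 and 126 CPM (0.68 ± 0.07, adjusted p = 1.61e-05, edgeR), the smallest of the 7 increases.

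Etv5, a PEA3-group factor induced by FGF signalling, moved the other way. It was 110.4, 109.8 and 86.9 CPM in reporter-negative and 63.4, 72.8 and 64.1 in reporter-positive DP cells, and 81.5, 76.9 and 66.7 against 53.3, 52.7 and 42.5 in SP cells. Reporter-positive cells were lower in both gates without overlap: it fell by 0.62 ± 0.11 in DP (adjusted p = 0.00114, edgeR) and by 0.60 ± 0.11 in SP (adjusted p = 0.0024, edgeR). Etv5 was also lower in SP than in DP, with differences of -0.45 ± 0.11 without and -0.43 ± 0.11 with the reporter (adjusted p = 0.0215 and 0.0243, edgeR). Both gate calls depended on single libraries. The first was lost without replicate 1 or 2 of the reporter-negative DP cells (adjusted p = 0.0882 and 0.1) or replicate 2 or 3 of the reporter-negative SP cells (0.0506 and 0.0932). The second was lost without replicate 2 of the reporter-positive DP cells (0.0737) or replicate 3 of the reporter-positive SP cells (0.0918).

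Etv5 has a processed pseudogene, Gm4798 on chromosome 10, that shares part of its sequence. Of 393 windows of 50 bases along the longest Etv5 transcript, 73.3% occurred in no other gene's transcripts. In the reporter set Gm4798 had 244 to 671 counts per library, 14.1 to 21.2% of those of Etv5, while in the second set it had 0 to 8. Adding both genes changed the log2 ratio of mean levels from -0.62 to -0.64 for the reporter in DP and from -0.60 to -0.60 in SP. For SP over DP it went from -0.45 to -0.43 without and from -0.43 to -0.40 with the reporter. The other 9 genes had at least 93.5% of such windows to themselves.

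In the second set Etv5 was 128, 167 and 169.9 CPM in WT DP and 77.3, 96.1 and 95.1 in WT SP cells, without overlap. The difference of -0.79 ± 0.24 lay just past the threshold (adjusted p = 0.0504, edgeR), and was called by DESeq2 (adjusted p = 0.0111) and without replicate 1 of the WT DP cells (-0.91, adjusted p = 0.0376, edgeR). With induced Etv2 it was 24.9, 60.2 and 46.1 CPM and fell by 1.03 ± 0.25 against WT SP (adjusted p = 0.00507, edgeR).

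Etv4, the other PEA3-group factor here, parted from Etv5 in the reporter line. It was 28.1, 27.1 and 23.9 CPM in reporter-negative and 31.5, 31.2 and 27.1 in reporter-positive DP cells, and 27.6, 27.1 and 25.4 against 25.7, 24.1 and 19.4 in SP cells. The libraries of neighbouring groups overlapped throughout. The reporter differences were 0.18 ± 0.10 in DP (adjusted p = 0.204, and 0.044 with a replicate block, edgeR) and -0.21 ± 0.10 in SP (adjusted p = 0.155, and 0.0255 with a block, edgeR), so their estimates had opposite signs. Among reporter-positive cells Etv4 was lower in SP than in DP (-0.37 ± 0.10, adjusted p = 0.0314, edgeR). This call was lost without replicate 1 or 2 of the reporter-positive DP cells (adjusted p = 0.0764 and 0.0745) and without replicate 2 or 3 of the reporter-positive SP cells (0.0556 and 0.109).

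Etv4 had its lowest levels of the second set in iEtv2 SP cells. WT cells held 40.1, 45.5 and 48.4 CPM in DP and 28.3, 32.9 and 37.4 in SP (-0.44 ± 0.33, adjusted p = 0.438, edgeR). These did not overlap, and Etv4 was called lower in WT SP cells in a fit to these 2 groups alone (-0.45, adjusted p = 0.0365, edgeR) and without a filter (-0.45, adjusted p = 0.00264). The iEtv2 SP libraries held 1.34, 7.66 and 3.93 CPM, all below the WT libraries and spread widely among themselves. The difference from WT SP was -2.93 ± 0.39, a 7.63-fold fall (adjusted p = 9.86e-05, edgeR), and between -3.60 and -2.50 with each library left out. The largest decreases of all genes tested were larger still: Etv4 ranked 194th of 16288 from the lowest fold change. Replicate 1 of the iEtv2 cells had the lowest Etv4, Etv5 and Pdgfra of that group and also its lowest endothelial marker sum, 1099 CPM against 1559.6 and 1469.

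Gabpa, which binds DNA together with Gabpb subunits at promoters of mitochondrial and other basic genes, gave a level reference within the family. It ran from 98.2 to 119 CPM in the reporter set and from 98.8 to 125 in the second. Its groups overlapped, and its differences lay between -0.09 and 0.14 log2 units with adjusted p of 0.154 or more. The gene (mm10 chromosome 16, 84834925 to 84863779) shares 397 exon bases with Atp5j on the opposite strand.

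Whether the reporter difference itself differed between SP and DP was tested as an interaction. None of the 10 genes was called at an adjusted p below 0.05 by edgeR, where 3.97% of all genes were, 1.52% higher and 2.45% lower. At an unadjusted p below 0.05 there were 4: Fli1 (1.31 ± 0.43, adjusted p = 0.108), Ets2 (0.86 ± 0.24, adjusted p = 0.0704), Etv6 (0.45 ± 0.12, adjusted p = 0.0522) and Etv4 (-0.39 ± 0.15, adjusted p = 0.152). DESeq2 called 2 of the 10, Ets2 and Etv6 (adjusted p = 0.0125 and 0.0182). Etv2 and Etv5 had estimates near 0, at 0.21 ± 0.20 and 0.02 ± 0.16. That of Erg was -0.10 ± 0.58, but its reporter differences had errors of 0.90 in DP and 0.41 in SP. The error of the Erg interaction is therefore understated, and its estimate decides little. With a replicate block edgeR called 4 of the 10: Fli1 (1.29, adjusted p = 0.00922), Ets2 (0.84, adjusted p = 0.0127), Etv6 (0.46, adjusted p = 0.0226) and Etv4 (-0.40, adjusted p = 0.0195). Same-numbered libraries met the rule for pairs, every correlation above 0.1, within each gate but not between gates. Between gates these correlations were 0.096 to 0.334 without and 0.077 to 0.269 with the reporter. Only the lowest of each fell short, so shared replicate effects between gates may be present. Without a filter Fli1, Ets2 and Etv6 were called (adjusted p = 4.34e-09, 1.51e-09 and 0.00341, edgeR). Their estimates there, 1.31, 0.85 and 0.45, were near the reported ones. The fits thus differed in the estimated spread and not in the size of the differences, and these smaller p-values are not relied on. Without replicate 3 of the reporter-positive SP cells the interaction was 0.92 for Fli1, 0.55 for Ets2 and 0.41 for Etv6, and none of the 10 was called (adjusted p = 0.192, 0.0609 and 0.116 for these, edgeR). Leaving out replicate 1 of the reporter-positive SP cells called Ets2 (adjusted p = 0.0434, edgeR), and leaving out replicate 1 or 2 of the reporter-positive DP cells called Etv6 (0.0417 and 0.0488). Whether these reporter differences differ between the gates thus depends on the fit and on single libraries.

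Per length of transcript, Etv2 was the most abundant of 26 ETS genes measured in 6 of the 7 groups. These RPKM levels use the merged exon length, and the 26 are the 10 genes plus 16 other family members fixed as a list. The summed RPKM of the family was 154 ± 4.93 in reporter-negative DP, 182 ± 13.9 in reporter-positive DP, 156 ± 4.27 in reporter-negative SP and 227 ± 14.9 in reporter-positive SP cells. Etv2 made up 12.5% ± 1.3, 30.5% ± 3.5, 16.2% ± 0.5 and 37.3% ± 4.7 of it in the same order. In reporter-negative DP cells Erf, a repressor regulated by ERK, was first with 17.3% ± 0.7 and Etv5 second with 16.2% ± 1.6. In reporter-negative SP cells the ranges of Etv2 and Erf overlapped, at 24.4 to 26.4 and 23.7 to 24.9 RPKM, so the first rank of Etv2 there was not clear. Gabpa kept a level of 18.2 to 20.1 RPKM in these 4 groups.

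In the second set the family summed to 219 ± 10.0 RPKM in DP and 266 ± 18.1 in SP cells of WT, and to 555 ± 16.3 in iEtv2 SP cells. The share of Etv2 was 23.3% ± 1.7, 33.3% ± 5.6 and 41.1% ± 1.2. Fli1 went from 0.502% of the pool in WT DP and 3.67% in WT SP to 13.8% ± 0.4 in iEtv2 SP cells, where it ranked second of the 26. Ets1, Ets2 and Elk3 followed there with 7.61%, 7.31% and 7.02%. Etv5, second in WT DP with 17.2% ± 1.9, was at 1.91% ± 0.75 in iEtv2 SP cells, and Etv4 at 0.248%. The 10 genes together held 61.9 to 74.7% of the pool in the reporter set and 69.9, 73.6 and 87.4% in the second set, in the order above. With the longest transcript as the length, Etv2 was again first in the same 6 groups, and its share ran from 10.4% to 36.0%. In reporter-negative SP cells it was then at 13.5% and Erf at 13.3%.

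**Figure D3:**
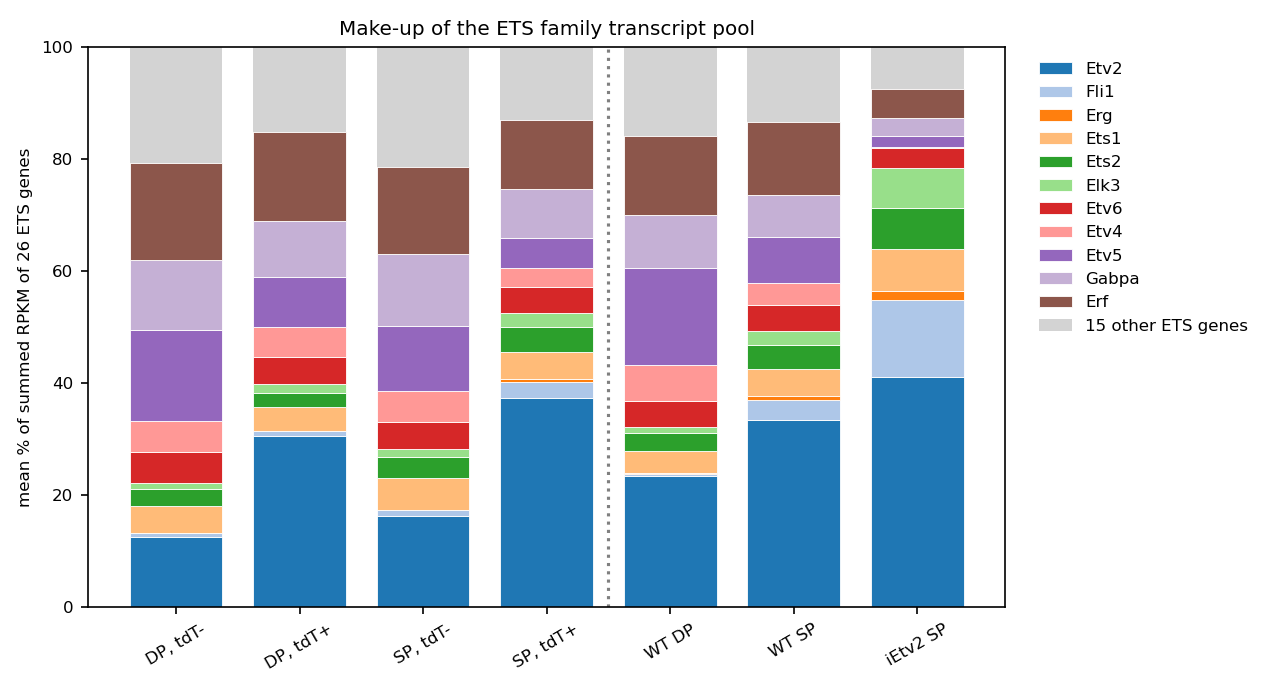
Mean share of the summed RPKM of 26 ETS genes held by each of the 10 genes, by Erf and by the other 15, in the 7 groups. The bars of a group add to 100%, and the dotted line separates the 2 sets. The Etv2 share is 12.5% in reporter-negative DP and 37.3% in reporter-positive SP cells, and Fli1 is visible as a large share (13.8%) in iEtv2 SP cells.

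The counts for the gene lists that follow stand beside the shares of all genes called: 30.7% for the DP reporter comparison, 25.5% for that in SP, 10.9% and 13.9% for the gates without and with the reporter, 3.97% for the interaction, 15.8% in WT and 50.8% with induced Etv2. Of the 16 other family members, 12 were tested in the reporter set and 13 in the second. In DP cells the reporter gave 0 higher and 3 lower, with a median log2 fold change of -0.03 against 0.00 over all genes. These were Etv1, the third PEA3-group gene (-0.89 ± 0.12, adjusted p = 0.000106, edgeR), Elf1 (-0.49) and Elk1 (-0.47). In SP cells it gave 3 higher and 4 lower, among them Spi1, the blood factor PU.1 (1.17 ± 0.33, adjusted p = 0.0193, edgeR), Fev (0.80 ± 0.25), Elf3 (-1.12 ± 0.19) and Etv1 (-0.95 ± 0.12). Spi1 itself was at 0.955 ± 0.204 CPM in reporter-positive SP cells, so its change is of a small number of transcripts. Without the reporter SP over DP gave 3 higher and 1 lower, and with it 2 higher and 1 lower, Spi1 (2.33 ± 0.38) and Fev (1.78 ± 0.28) up and Etv1 (-0.49 ± 0.12) down. The interaction called 0 of 12. Without replicate 3 of the reporter-positive SP cells the reporter in SP gave 2 higher and 3 lower, and the other counts were the same.

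In WT, SP over DP gave 2 of the 13 higher, Spi1 (2.32 ± 0.29) and Fev (2.05 ± 0.25), and 3 lower, of which Etv1 fell most (-1.20 ± 0.23, adjusted p = 0.00488, edgeR). Induced Etv2 gave 4 higher and 3 lower of 13, a share near that of all genes (50.8%), with Spi1 (1.17 ± 0.22), Elf4 (0.85 ± 0.13) and Etv3 (0.84 ± 0.08) up and Etv1 (-0.68 ± 0.23, adjusted p = 0.0311, edgeR) down. Etv1 was thus lower in all 6 of these simple comparisons, as the estimate for Etv5 was. Its level was 28.2 ± 4.9 CPM in reporter-negative DP and 10.8 ± 0.2 in reporter-positive SP cells, and 43.0 ± 6.3, 18.7 ± 3.3 and 11.7 ± 4.1 in WT DP, WT SP and iEtv2 SP cells.

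Known partners and regulators of Etv2, 12 genes, all passed the filter. In DP the reporter came with 5 higher and 5 lower (median 0.44). Tal1 (4.14 ± 0.46, adjusted p = 3.47e-05, edgeR), which acts with Etv2 in blood and endothelial specification, was highest, and the forkhead partners Foxc1 (-2.87 ± 0.25) and Foxc2 (-2.64 ± 0.21) and the mesoderm factor Mesp1 (-2.54 ± 0.27) were lower. In SP it gave 5 higher and 3 lower (median 0.23), led by Tal1 (3.16 ± 0.32), Lmo2 (2.52 ± 0.22), Nkx2-5 (2.42 ± 0.16) and Mesp1 (-2.62 ± 0.29). SP over DP gave 5 higher and 3 lower without the reporter and 5 and 1 with it. The interaction called Foxc2 (3.09 ± 0.31, adjusted p = 0.00363, edgeR), Gata2 (1.12 ± 0.29) and Ovol2 (-2.47 ± 0.59). Foxc2 was at 11.2 ± 1.5 CPM in reporter-negative DP cells and between 1.79 and 2.61 in the other 3 groups of that line. Without replicate 3 of the reporter-positive SP cells the reporter in SP gave 4 higher and 3 lower, the gates with the reporter 4 and 1, and the interaction 1 and 0.

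In WT, SP over DP gave 4 higher, led by Tal1 (3.51 ± 0.15), Lmo2 (3.04 ± 0.22) and Gata2 (2.78 ± 0.15), and 3 lower, led by Foxc1 (-2.66 ± 0.24). Induced Etv2 gave 3 higher and 4 lower of 12, again near the 50.8% of all genes. There Foxc2 was higher (2.01 ± 0.30, adjusted p = 0.000216, edgeR), and Mesp1 (-4.18 ± 0.54), Nkx2-5 (-4.05 ± 0.32, adjusted p = 2.6e-06, edgeR), the cardiac factor that acts upstream of Etv2, and Bmp4 (-2.47 ± 0.28) were lower.

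Vascular genes with known ETS-bound enhancers, 20 genes, moved mostly one way. Of the 18 tested in the reporter set, the reporter gave 9 higher and 3 lower in DP (median 1.15) and 15 higher and 0 lower in SP (median 1.81). Those lower in DP were Robo4 (-0.85), Notch4 (-0.73) and Kdr (-0.42). Kdr, the gene of the FLK1 gate, is part of this list and is counted in it. It was not called for the reporter in SP (0.20, adjusted p = 0.241, edgeR). Among reporter-positive cells it is counted as higher in SP than in DP. Sox7 (4.21 ± 0.47 and 3.33 ± 0.31), Cdh5 (3.56 ± 0.75, DP), Tek (3.19 ± 0.62, DP), Icam2 (3.41 ± 0.63, SP) and Lyl1 (2.92 ± 0.40, SP) had large differences. SP over DP gave 9 higher and 1 lower, Robo4 (-1.05), without the reporter and 15 and 0 with it. The interaction called Flt1 (1.33 ± 0.31, adjusted p = 0.0352, edgeR) and Flt4 (0.77 ± 0.19). Without replicate 3 of the reporter-positive SP cells the reporter in SP gave 13 higher (median 1.38), the gates with the reporter 14 (median 1.43), and the interaction 0. In WT 16 of 20 were higher and 0 lower (median 2.25), and with induced Etv2 18 of 20 and 0 (median 2.66). The largest there were Emcn (6.37 ± 0.67), Tie1 (5.46 ± 0.26), Cdh5 (4.47 ± 0.25) and Esam (3.98 ± 0.13, adjusted p = 1.77e-08, edgeR). Cdh5, Pecam1, Tek, Tie1, Emcn, Esam, Icam2 and Egfl7 of this list are also the endothelial markers used below. Of these 8, 6 had a mean under 1 CPM in reporter-negative DP and 4 in reporter-negative SP cells, so large differences from those groups can rest on few transcripts.

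FGF ligands, receptors and ERK feedback genes, 20 in all and all tested, are the pathway upstream of Etv4 and Etv5. In DP the reporter gave 3 higher and 10 lower (median -0.25). The ligands Fgf4 (-2.44 ± 0.21, adjusted p = 5.28e-06, edgeR), Fgf8 (-2.15 ± 0.33) and Fgf5 (-1.49 ± 0.41) were lower and the receptor Fgfr2 (1.41 ± 0.31) higher. In SP it gave 1 higher, Fgf3 (0.91 ± 0.13), and 4 lower, led by Fgf8 (-1.85 ± 0.35, adjusted p = 0.00232, edgeR). SP over DP gave 3 higher and 6 lower without the reporter and 2 and 2 with it, and in WT 2 and 5. The interaction called 4 higher and 1 lower, with Fgf4 (1.93 ± 0.30, adjusted p = 0.0129, edgeR), Fgf3 (1.13 ± 0.18) and Dusp4 (1.01 ± 0.25) up and Fgfr2 (-1.90 ± 0.43) down. Without replicate 3 of the reporter-positive SP cells the reporter in SP gave 1 higher and 1 lower, the gates with the reporter 1 and 0, and the interaction 2 and 0.

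Induced Etv2 gave 4 of the 20 higher and 8 lower (median -0.20), beside 50.8% of all genes called, 26.4% higher and 24.4% lower. Fgf3 (-3.48 ± 0.23, adjusted p = 7.99e-07, edgeR), Fgf15 (-3.07 ± 0.18) and the receptors Fgfr3 (-2.90 ± 0.21) and Fgfr2 (-2.39 ± 0.19) fell. Of the feedback genes, Spry4 (-1.89) and Spred1 were lower while Spry1 (1.05) and Dusp6 (0.93) were higher, so the list did not move as one.

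By likeness of profile, Fli1 and Erg were each other's nearest among the 10 genes, as were Ets1 and Ets2, and Etv6 and Gabpa. The measure was the root mean square difference of log2 group means, each set centred on its own mean, over the 7 groups, and was 0.31, 0.22 and 0.34 for these pairs. Etv2 and Elk3 were nearest to Ets2 (0.50 and 0.46), Etv4 to Etv5 (0.56) and Etv5 to Gabpa (0.53). Among 9644 genes of at least 5 CPM in each set, the nearest to Fli1 was Myzap (0.20), to Erg Atp2a3 (0.097), to Etv2 Cdc42ep1 (0.20) and to Elk3 Npl (0.15). Ets1 was closest to Klf7 (0.069), Ets2 to Slc18a2 (0.17), Etv6 to Grk5 (0.049), Etv4 to Gpc3 (0.096), Etv5 to Upp1 (0.072) and Gabpa to Slu7 (0.013). Genes with little change have small differences by construction, so these values are not compared between genes. Erg itself had a mean of at most 3.71 CPM in the reporter set, and the 0.5 added before logs flattened its profile there. Its centred values were -1.14 in reporter-negative and -0.52 in reporter-positive DP cells, where the fitted difference was 2.78. The likeness of Erg to Fli1 and Atp2a3 rests on that flattened profile.

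Markers of other cell types moved with the ETS genes. The summed level of 8 endothelial markers was 19.3 to 27.7 CPM in reporter-negative DP, 34.5 to 53.9 in reporter-positive DP, 27.6 to 45.6 in reporter-negative SP and 77.8 to 159.7 in reporter-positive SP cells. In WT it was 13.8 to 21.5 CPM in DP and 85.2 to 131 in SP cells, and with induced Etv2 it was 1099 to 1559.6. At a mean under 1 CPM were 6 of the 8 markers in reporter-negative DP, with 1 listed at 0 in every library, and 2 of the 8 in reporter-positive SP cells. Within each of the 7 groups, the library with most endothelial marker RNA was the highest for Ets2 in 6 groups and for Fli1, Erg and Ets1 in 5 groups each. It was the highest for Etv2 in 0 groups and the lowest in 5. For Etv5 it was the lowest in 5 groups and for Etv4 in 6, while in the iEtv2 cells it was the highest for both and the lowest for Fli1. For Elk3 it was the highest in 2 groups and the lowest in 0, for Etv6 in 2 and 3, and for Gabpa in 0 and 4. The library with most endothelial marker RNA was replicate 3 in every group of the reporter line and replicate 1 in both WT groups. If equal numbers share a culture, these groups are not separate observations. These counts were not set against those of all genes, and each group has only 3 libraries. The part of endothelial RNA in these results was not tested.

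**Figure D4:**
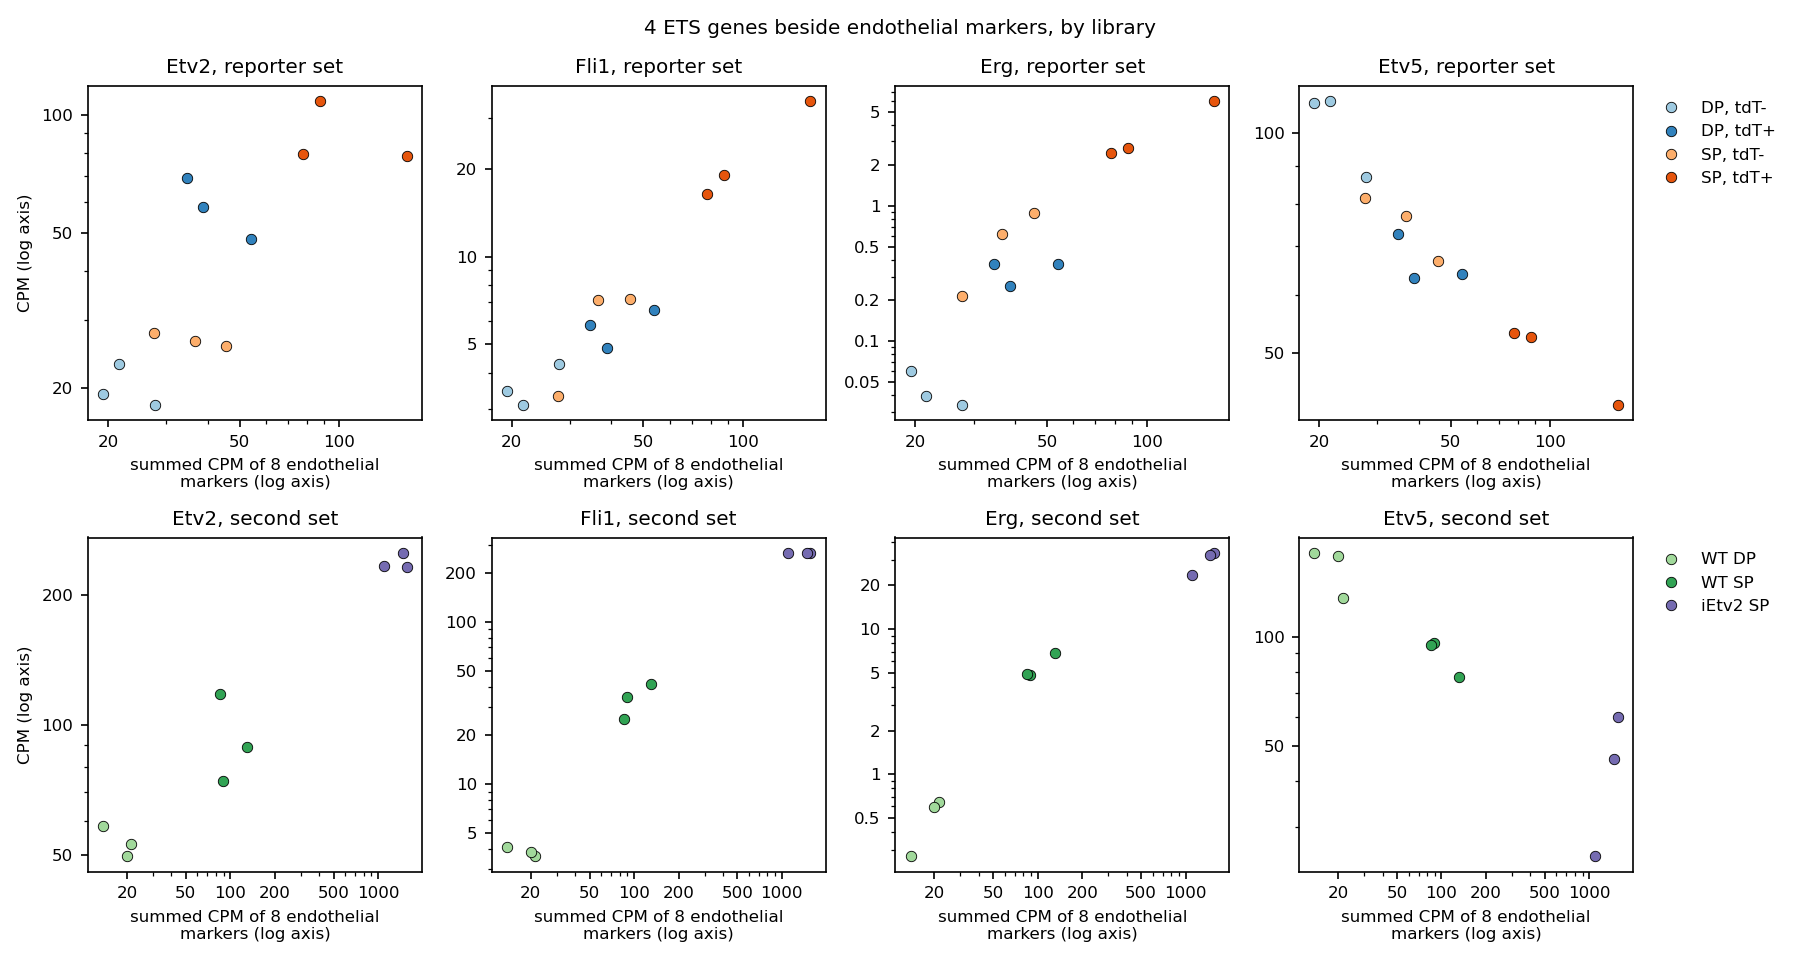
CPM of Etv2, Fli1, Erg and Etv5 in each library against the summed CPM of 8 endothelial markers, both on log axes, with the reporter set in the upper row and the second set in the lower row, each on its own axes. In the second set Fli1 and Erg lie highest in the iEtv2 libraries at 1099 to 1559.6 CPM of markers. In the reporter set, reporter-positive DP and reporter-negative SP libraries overlap in marker sum (34.5 to 53.9 and 27.6 to 45.6 CPM) but not in Etv2 (48.3 to 68.9 and 25.6 to 27.7 CPM).

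Other lineages differed between the same groups. The sum of 7 blood markers was 15.3 to 19.4 CPM in reporter-negative DP and 69.1 to 118 in reporter-positive SP cells, and 68.9 to 77.6 in iEtv2 SP against 70.6 to 108 in WT SP cells. The 8 paraxial mesoderm markers summed to 136 to 208 CPM in reporter-negative and 16.2 to 30.4 in reporter-positive DP cells, beside the fall of Etv5 there. In WT they were at 248.9 to 283 CPM in DP and 39.5 to 61.4 in SP cells, and with induced Etv2 at 15.1 to 22.5, and Etv5 was also lower in that order. The 8 cardiac markers summed to 735 to 833 CPM in WT SP and 30.1 to 55.6 in iEtv2 SP cells, and the 6 pluripotency markers to 51.3 to 83.9 and 254 to 278. In the reporter line the pluripotency sum was lower with the reporter, at 34.9 to 58.5 against 142.5 to 202 CPM in DP and 29.7 to 40.6 against 66.7 to 105 in SP cells. Their part in the differences of the ETS genes was not tested.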

How the data were processed

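Total RNA libraries (TruSeq Stranded Total RNA kit, per the labels' protocols) of 21 sorted samples were available as raw counts per Ensembl gene, which the authors deposited without normalization. The submitters' processing notes name featureCounts and mm10 without a version, while aligner, annotation and strand setting are not given in the sources used here. In the 9 files of the second set there were extra lines for unmapped reads (3.95 to 5.25%) and reads mapped to several places (7.34 to 8.75%), named as STAR names them, so the counting tool of these files is uncertain. Those lines entered neither library sizes nor tests. Of 55487 gene IDs, 55227 were named from GENCODE M21.

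Groups were taken from the sample titles. One fit was made to the 12 libraries of the TGET line and another to the remaining 9, with edgeR 4.0.16 in R 4.3.3 (TMM, filterByExpr defaults, one term per group, quasi-likelihood tests, two-sided, Benjamini-Hochberg over all genes tested). Standard errors are the log2 fold change over the root of F. As alternatives, scaling was by upper quartile or RLE, the filter was dropped or set to 1 CPM in 3 libraries, a replicate block was added, the fit was limited to the compared groups, DESeq2 1.42.0 was used, and a fold of at least 2 was required. Mitochondrial and ribosomal RNA genes, each library in turn, and both libraries of high ribosomal RNA share were also left out, and length was taken from the longest transcript. Counts for the gene lists without replicate 3 of the reporter-positive SP cells were added after seeing the data. The tests were tried on simulated data. Equal replicate numbers counted as pairs if each correlation between such libraries exceeded 0.1, which held for the reporter in DP (0.175 to 0.342) and in SP (0.143 to 0.268) and in no other comparison.

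The named genes were all 10 ETS genes, Kdr, Pdgfra and T, up to 4 called genes of a list with the largest change, and the nearest genes by profile, searched at a mean of at least 5 CPM with 0.5 added before logs. The list genes Spry4, Spry1, Dusp6 and Spred1 under induced Etv2, Gata2 in WT and the levels of Etv1, Spi1 and Foxc2 were named after their values were seen, as were Erf and Gm4798. The ETS genes and all lists were chosen with earlier results of these data known. Matches to GGAA and CCGGAAGT were counted on both strands. Counting error is all that the exact intervals and the level of 3 counts reflect. Tables and figures used Python 3.11.15, numpy 2.4.6, pandas 2.3.3 and matplotlib 3.10.9.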

Additional observations from a re-analysis of the deposited data

How the results depend on the processing

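Of 1078 fold changes of ETS genes recomputed under alternatives, 974 kept their direction and their side of the threshold, and the cause of the other changes was not tested unless the setting itself shows it. The reversed differences lay between -0.10 and 0.06 in the reported fits and were not called there. Etv6 for the reporter in DP was -0.0256 with upper-quartile scaling, -0.0073 without a filter, -0.005 with 1 CPM, -0.0029 with a replicate block and -0.0005 without mitochondrial and ribosomal RNA genes. Gabpa for the reporter in SP was -0.0415, -0.0122, -0.0065 and -0.0059 under the same settings other than the block, and -0.0055 with only the compared groups. With each library left out, ranges crossed 0 for the reporter in DP for Ets1 (-0.0472 to 0.166), Ets2 (-0.0997 to 0.0875) and Etv6 (-0.0623 to 0.113), and for Gabpa in SP (-0.0337 to 0.0314). They also did for Etv4 between gates without the reporter (-0.047 to 0.0528), for the interaction of Erg (-0.625 to 0.342) and Etv5 (-0.0623 to 0.121), and for Gabpa with induced Etv2 (-0.134 to 0.0038). A minimum fold of 2 left 2, 4, 1, 3 and 3 ETS genes for the reporter in DP and SP, the gates without and with the reporter, and the gates of WT. Between gates without the reporter, 7 ETS genes were called without a filter and 5 with a replicate block. For some ETS genes dropping the filter left the estimate near the reported one but made adjusted p far smaller, as for Etv5 in WT (-0.80, adjusted p = 1.86e-15, edgeR). Calls gained without a filter are therefore not relied on. For the gates without the reporter, leaving out each library gave 0 to 3 ETS genes and 787 to 2268 of all genes. Between gates with the reporter, leaving out each library gave 5 to 8 ETS genes and 1342 to 2403 of all genes. Leaving out both libraries of high ribosomal RNA share gave 5 ETS genes and 1106 of all genes there, and 2459 of all genes for the reporter in SP. With only the compared groups 1324 of all genes were called between gates with the reporter. For the interaction, 3, 2 and 4 ETS genes and 1740, 1224 and 1537 of all genes were called without a filter, with DESeq2 and with the block. With each library left out 0 to 1 ETS gene and 50 to 1268 of all genes were called there, and 119 of all genes without both high ribosomal RNA libraries. In WT, 1509 to 2683 of all genes were called with each library left out. For induced Etv2, 9 ETS genes were called under every setting tried except the minimum fold, which gave 8. Upper-quartile scaling moved the share of higher genes among those called for the reporter in SP from 51.4 to 40.4%. Apart from the values given with a block in the report for Fli1 and Etv4, the block changed no ETS call for the reporter within a gate. The 3 libraries of a group and, for Erg, 1 to 26 counts per library in the other 3 groups of the reporter set limit what these comparisons can detect.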
